A study of Conyza sumatrensis with 22 samples.

Results

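Population S of Conyza sumatrensis, Sumatran fleabane, is 1 of 2 populations in the series that the labels call sensitive to 2,4-D, a synthetic auxin sprayed against broadleaved weeds. Its response was read from 7 of the 22 leaf libraries, chosen by their labels. The filter, the scaling and the spread used in the gene tests came from all 22 libraries. The 4 treated S libraries come from leaves taken 5 h after spraying with 2,4-D (1005 g ha-1 of active ingredient), and the 3 untreated S libraries from leaves taken before spraying. The other 15 libraries belong to the sensitive population T (4 treated, 4 untreated) and the resistant population R (3 treated, 4 untreated), sampled in the same way. Polyadenylated RNA was sequenced, and the labels say neither whether libraries of a group came from separate plants nor whether plants were pooled. The p-values therefore measure the spread between libraries of a group, for the gene tests over all 6 groups. This spread may in part be technical. No group was sprayed without 2,4-D, so spraying, handling and the time of sampling cannot be told apart from the herbicide.

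Auxin is a plant hormone that directs cell growth. It binds receptors of the TIR1/AFB family, which then mark Aux/IAA repressor proteins for destruction and so free the ARF transcription factors to switch on early auxin genes. These include the Aux/IAA repressors themselves, GH3 enzymes that join auxin to amino acids and the short SAUR growth genes. 2,4-D engages the same receptors but is removed slowly, and in sensitive broadleaved plants the lasting signal is known to raise ethylene and abscisic acid synthesis and to end in twisted growth and death. None of these genes could be looked up in the data, because the files give identifiers of gene models (a letter and a running number) and do not pair them with names. The same holds for leaf cell type markers, so the labelled tissue was not checked. Genes are described as groups, with 2 that rose and 2 that fell named by identifier.

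The S libraries held 20.1 M to 23.5 M assigned reads. Between 23400 and 24238 gene models had at least 1 count in treated S, against 23332 to 23748 in untreated S. The means were 23809.5 ± 390 in treated S (SD, n = 4) and 23509.3 ± 215 in untreated S (SD, n = 3), and did not differ by the test (2-sided exact permutation p = 0.343). The 10 most counted genes took 6.49% ± 1.3 of the reads in treated S (n = 4) and 5.72% ± 1.27 in untreated S (n = 3; exact permutation p = 0.514), a difference of 0.764 percentage points that was 0.142 without treated library 4. With 4 libraries against 3, this test cannot give a p below 0.0571.

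Treated library 4 stood apart from the other S libraries. Across the 22627 tested genes its log2 CPM (counts scaled to library size) correlated with treated libraries 1 to 3 at 0.957 to 0.96, while these 3 correlated with each other at 0.971 to 0.981. Its correlation with the untreated libraries was 0.907 to 0.928, against 0.953 to 0.968 for treated libraries 1 to 3. On the first principal component of the 7 S libraries, with 46.1% of the variance, treated library 4 lay at 114, treated libraries 1 to 3 at 13.6 to 27, and the untreated libraries at -80 to -42.6. All 4 treated libraries thus lay on one side of the untreated ones, with library 4 farthest out. Counts of called genes and their main classes are given with and without it.

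At 5 h after 2,4-D the change in S was mostly a rise. Among 22627 tested genes, 583 were higher in treated than in untreated S, which is 2.58% of those tested, and 104 were lower, which is 0.46% (edgeR quasi-likelihood F test with Benjamini-Hochberg adjusted p below 0.05). Both together are 3.04% of the tested genes, while 15.4% had an unadjusted p under 0.05. The risen genes had a median log2 fold change of 2.17, with quartiles of 1.37 and 3.59, and those that fell had a median of -1.22, with quartiles of -1.83 and -0.80. Over all tested genes the median was -0.01. In a bulk leaf sample a lower value may mean fewer cells of a type or less RNA per cell, and these cannot be told apart. The number of genes depended on the libraries used. Without treated library 4 it was 378 higher (1.67%) and 52 lower (0.23%), of which 369 and 47 were also called with all libraries. The 581 of the 583 risen genes that could still be tested all kept a positive log2 fold change without library 4, with a median of 1.82, and the 104 that fell all stayed negative, with a median of -1.09. Without untreated library 2, 304 genes were higher and 72 lower, and without treated library 2, 689 were higher and 163 lower. With a model of the 7 S libraries alone, 205 of 19863 genes were higher (1.03%) and 14 lower (0.0705%), and 201 and 13 of these were also called with all 22 libraries.

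**Figure D1:**
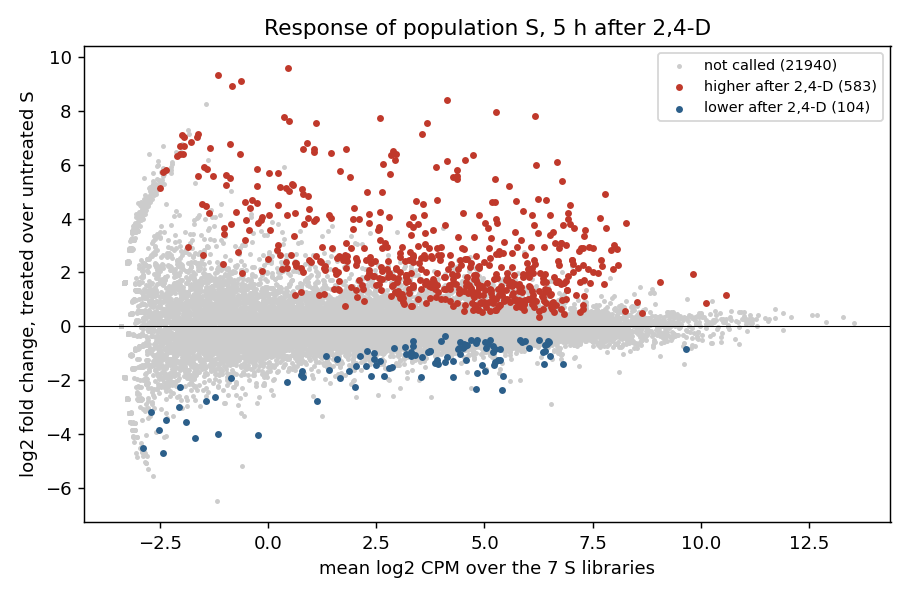
Each point is 1 of the 22627 tested genes, placed by its mean log2 CPM over the 7 S libraries and by its log2 fold change, treated over untreated S. The 583 called genes that rose spread from low to high levels and reach a log2 fold change of 9.61, while the 104 that fell reach -4.71.

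The called rises were often large. Of the 583 genes, 507 at least doubled (a log2 fold change of 1 or more), 316 reached a log2 fold change of 2 and 118 one of 4. Of the 104 genes that fell, 63 reached a log2 fold change of -1, 18 one of -2 and 5 one of -4. Over all tested genes, 14% had a log2 fold change of at least 1 in either direction, 4.94% of at least 2 and 1.18% of at least 4. Calling favours large folds, so these sizes describe the called genes only. Without treated library 4, 328 of 378 risen genes at least doubled, 200 reached a log2 fold change of 2 and 70 one of 4, while 39 of 52 fallen genes reached -1. The libraries of the groups did not overlap for 559 of the risen genes and 93 of the fallen ones. Over all tested genes, 7.41% had every treated library above every untreated one and 5.23% had every one below. The same 4-against-3 separation chose the calls in part, so these counts describe the called genes and test nothing.

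By level in untreated S the risen genes lay near all tested genes, apart from the most abundant ones. Of the 583, 257 (44.1%) had a mean of 10 to 100 CPM in untreated S, against 44.5% of all tested genes, and 190 (32.6%) had 1 to 10 CPM, against 27%. Another 106 (18.2%) lay above 0 and under 1 CPM, against 16.6% of all tested genes, and 16 (2.74%) had no count in any untreated library, against 3.08%. At 100 CPM or more there were 14 (2.4%), against 8.88% of all tested genes. The median log2 fold change of the risen genes was 1.03 in the class at 100 CPM or more, 1.53 at 10 to 100 CPM, 2.33 at 1 to 10 CPM and 4.36 under 1 CPM. These medians are over called genes, and a gene of low count needs a larger fold to be called. Over all tested genes the class medians were -0.02, -0.04, -0.04 and 0.15 in the same order, so no trend of the fold with level is read from the called genes. The median levels of the risen genes were 4.11 in treated and 0.246 in untreated S CPM for the class under 1 CPM, and 480 in treated and 184 in untreated S for the class at 100 CPM or more. Of the 104 genes that fell, 62 (59.6%) stood at 10 to 100 CPM in untreated S and 12 (11.5%) at 100 CPM or more.

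With all libraries, genes with no untreated count rose at about the share of all tested genes. The 16 that rose are 2.3% of the 697 tested genes with 0 counts in all 3 untreated S libraries, near the 2.58% of all tested genes. The median treated S level of the 697 was 0 CPM, and the filter that kept them used all 22 libraries. The treated S means of the 16 genes ran from 0.209 to 3.84 CPM with a median of 0.643 CPM. Counts were present in all 4 treated libraries for 11 of the 16. Set against a floor of 3 counts over the untreated group (0.0484 CPM), they were at least 4.08-fold to at least 70.3-fold higher in treated S. Treated library 4 was the highest of the 4 for 13 of them. In the other populations 3 of the 16 rose in T and 7 in R, beside 5.71% and 9.37% of all tested genes. Without treated library 4, 5 of 695 tested genes rose from 0 counts in untreated S, a smaller share than the 1.67% of all tested genes. The likeness to all tested genes thus depended on library 4. In the other direction, 484 tested genes had no count in any treated S library. Of these 1 was called lower, beside 0.46% of all tested genes.

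Together the genes that rose took 3.85%, 4.04%, 5.34% and 8.28% of the reads in treated libraries 1 to 4, against 1.67%, 1.31% and 1.23% in untreated libraries 1 to 3. The lowest treated library thus lay above every untreated one, and treated library 4 held the largest share. The means were 5.38% ± 2.05 in treated S (SD, n = 4) and 1.4% ± 0.234 in untreated S (n = 3). Per unit of transcript length, the same genes held 3.99% ± 1.61 of TPM, which scales reads by length and library in treated and 0.836% ± 0.177 in untreated S. The genes that fell took 0.256%, 0.252%, 0.259% and 0.176% of the reads in treated libraries 1 to 4, against 0.44%, 0.464% and 0.558% in untreated libraries 1 to 3. These shares follow from the calls and are a description.

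Within treated S the size of the rise varied between libraries, and library 4 was its upper end. It had the highest CPM of the 4 for 483 of the 583 risen genes (82.8%), against 35.2% of all tested genes. Libraries 1, 2 and 3 were highest for 25, 36 and 39 of the risen genes. For 284 of the risen genes library 4 stood at least 2 times above the mean of libraries 1 to 3, as did 9.4% of all tested genes. The median ratio of library 4 to that mean was 1.97 for the risen genes, 0.803 for the fallen ones and 0.999 for all tested genes. For the fallen genes library 4 was the lowest of the 4 in 58 of 104 (55.8%, against 31.4% of all tested genes). A group of 81 risen genes (13.9%) had all 4 treated libraries within 1.5-fold, against 36.2% of all tested genes, and their median log2 fold change was 1.01. Libraries 1 to 3 alone lay above every untreated library for 559 of the 583 risen genes and below every one for 96 of the 104 fallen genes, and on the side of their fold change for 14.9% of all tested genes. These libraries had a part in the calls, so the counts are a description. Library 4 also had the lowest TMM factor (the scaling of a library's size) in treated S, at 0.837 against 0.941 to 0.976, and its 10 most counted genes took 8.36% of its reads, against 5.32% to 6.18% in libraries 1 to 3. The part of these values in the height of library 4 was not tested.

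**Figure D2:**
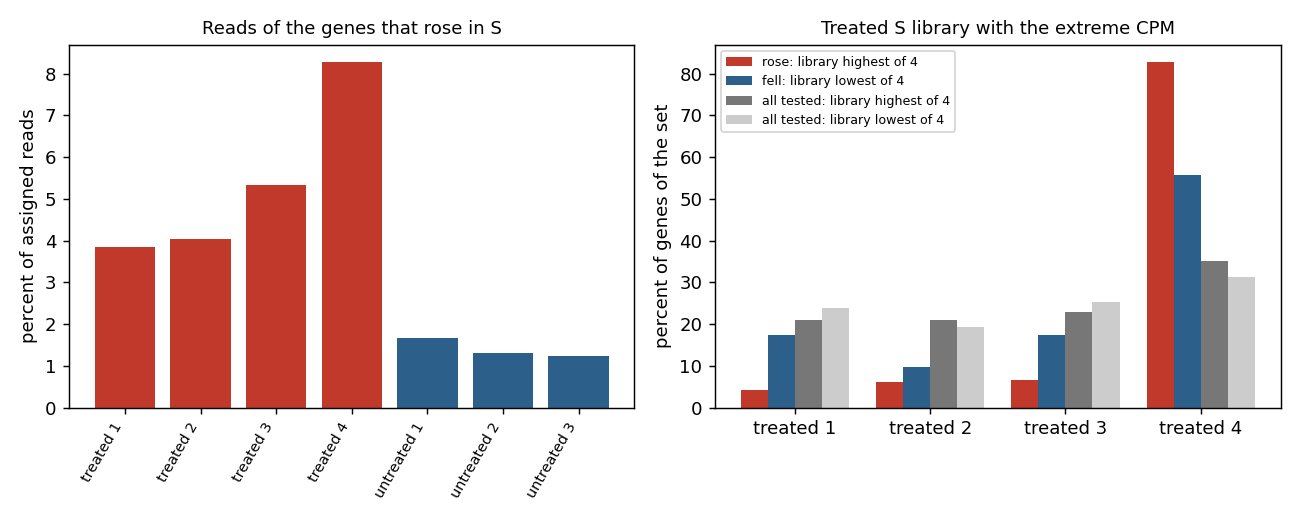
The left bars give the percent of assigned reads of each S library that fell on the 583 genes that rose in S. They run from 3.85% to 8.28% in treated and from 1.23% to 1.67% in untreated libraries. The right bars give, for each treated library, the percent of genes of a set for which it had the highest or the lowest CPM of the 4. Treated library 4 was highest for 82.8% of the risen genes and lowest for 55.8% of the fallen ones.

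Genes chosen without any S library gave a second view of the response. In a model of the 8 T libraries alone, 1937 genes rose in T, and their mean log2 CPM in S was 4.54, 4.52, 4.65 and 5.16 in treated libraries 1 to 4, against 3.88, 3.68 and 3.87 in untreated libraries 1 to 3. Every treated S library lay above every untreated one. The mean difference was 0.903, and 0.756 without treated library 4. Of these 1937 genes, 78.8% had a positive log2 fold change in S, against 47.3% of all tested genes, and 404 (20.9%) were called higher in S, against 2.58% of all tested genes. The 1168 genes that fell in T alone had a mean log2 CPM of 4.20, 4.24, 4.18 and 3.81 in treated S libraries 1 to 4, against 4.55, 4.50 and 4.29 in untreated S libraries 1 to 3. All treated libraries lay below all untreated ones, by 0.338 on average and by 0.24 without treated library 4. In S, 82.6% of these genes had a negative log2 fold change, against 51% of all tested genes, and 41 (3.51%) were called lower, against 0.46% of all tested genes. The S calls used a spread set in part by the T libraries that chose the lists, which may favour such calls.

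Lists chosen in the resistant population were measured in the same way. In a model of the R libraries alone 1288 genes rose, and their mean log2 CPM in S was 2.29, 2.48, 2.71 and 3.27 in treated libraries 1 to 4, against 2.06, 1.58 and 1.75 in untreated libraries 1 to 3. The groups did not overlap, with a mean difference of 0.891, or 0.699 without treated library 4. Of these genes 78.6% had a positive log2 fold change in S and 203 (15.8%) were called higher. The 367 genes that fell in R alone had a mean log2 CPM of 4.49, 4.79, 4.21 and 4.78 in treated S libraries 1 to 4, against 4.54, 4.46 and 4.94 in untreated S libraries 1 to 3. Here the groups overlapped, with a mean difference of -0.08, or -0.15 without treated library 4. Of these genes 55% had a negative log2 fold change in S, against 51% of all tested genes. In S 6 (1.63%) were called lower, against 0.46% of all tested genes, and 2 (0.545%) were called higher, against 2.58%. The R libraries likewise helped to set the spread behind the S calls. Treated library 4 was the farthest from the untreated S libraries for 3 of the 4 lists, the list that fell in R being the exception.

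**Figure D3:**
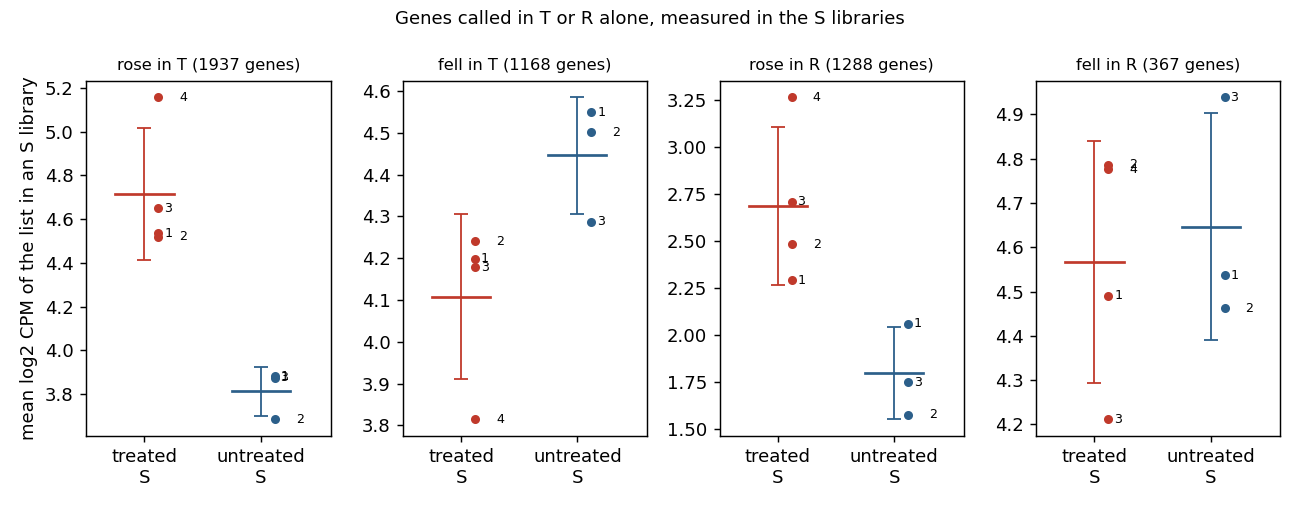
Mean log2 CPM, in each S library, of the genes that rose or fell in models of the T libraries alone or the R libraries alone. Points are libraries with their replicate numbers, lines are group means and bars are SD (n = 4 treated, n = 3 untreated). Treated and untreated S libraries are apart for the genes that rose in T, fell in T and rose in R, and overlap for those that fell in R.

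Of the 583 genes that rose in S, 202 (34.6%) were also called higher in both T and R, and 161 (27.6%) in T and not in R. Another 70 (12%) were called higher in R and not in T, and 150 (25.7%) in neither. Over all tested genes these shares were 1.94%, 3.77%, 7.42% and 86.9% in the same order. The calls in S, T and R used the same spread for a gene, so a gene of low spread may be favoured in each. The 202 shared genes had median log2 fold changes of 2.85 in S, 2.61 in T and 2.31 in R. For the 161 genes the medians were 2.17 in S, 2.03 in T and 0.45 in R, and for the 70 genes 1.88 in S, 0.66 in T and 2.1 in R. The 150 genes called in S alone had a median of 1.48 in S, against 0.29 in T and 0.16 in R. The genes were chosen by their S values, which favours S in each of these comparisons. Without treated library 4, 181 of the 378 risen genes also rose in both T and R, 109 in T and not in R, 22 in R and not in T, and 66 in neither. Of all tested genes, 5.71% rose in T and 9.37% in R. Of the 104 genes that fell in S, 8 (7.69%) fell in both others and 28 (26.9%) in T and not in R. Another 6 (5.77%) fell in R and not in T, and 62 (59.6%) in neither. Over all tested genes these shares were 0.455%, 4.6%, 6.57% and 88.4% in the same order, with 5.06% that fell in T and 7.03% in R. None of the 583 risen genes was called lower in T, while 5 were called lower in R, and 2 of the 104 fallen genes were called higher in T. A call missing in T or R does not show a different response. The test of the difference itself called 12 of 22627 genes for S minus T (0.053%) and 816 for S minus R (3.61%).

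Gene g20589, a gene model with 1 transcript of 1308 coding bases, had the smallest p of all genes tested in S. It stood at 94.5, 116, 97.1 and 120 CPM in treated libraries 1 to 4, against 2.30, 1.99 and 2.49 CPM in untreated libraries 1 to 3. The treated values lay close together and far above the untreated ones, with treated library 4 little above library 2. The means were 107 ± 13.2 CPM in treated S (SD, n = 4) and 2.26 ± 0.251 CPM in untreated S (n = 3), a 47.3-fold rise (log2 fold change 5.56, SE 0.26, edgeR adjusted p = 7.41e-11). Per length it stood at 62.2 ± 8.03 TPM in treated and 1.31 ± 0.201 TPM in untreated S. In T it averaged 90.4 ± 13.7 CPM treated and 4.86 ± 1.35 CPM untreated (n = 4 each), and in R 29 ± 3.22 CPM treated (n = 3) and 5.13 ± 1.18 CPM untreated (n = 4). It rose in T (log2 fold change 4.21, edgeR adjusted p = 2.89e-10) and in R (2.50, edgeR adjusted p = 5.67e-07). The rise was larger in S than in R by 3.06 on the log2 scale (SE 0.31, edgeR adjusted p = 7.75e-05), a call that held in all 29 alternatives. The gene was named for its change in S, which favours a larger rise in S than in T or R. Against T the difference was 1.35 (SE 0.29, edgeR adjusted p = 0.0975) and did not pass. It passed in 2 of 29 alternatives, without untreated T library 1 (1.52, edgeR adjusted p = 0.0375) and with DESeq2 (1.35, adjusted p = 0.00498).

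Gene g22258, with 1 transcript of 1203 coding bases, stood at 30.3, 24.4, 41 and 44 CPM in treated S libraries 1 to 4, against 2.62, 2.69 and 4.08 CPM in untreated libraries 1 to 3. All treated libraries were several times above the untreated ones, with libraries 3 and 4 the higher pair. It averaged 34.9 ± 9.12 CPM in treated S (SD, n = 4) and 3.13 ± 0.824 CPM in untreated S (n = 3), an 11.1-fold rise (log2 fold change 3.48, SE 0.26, edgeR adjusted p = 2.1e-07). In T it averaged 63.4 ± 11.5 CPM treated and 5.75 ± 1.2 CPM untreated (n = 4 each), and in R 18.9 ± 3.94 CPM treated (n = 3) and 6.94 ± 1.14 CPM untreated (n = 4). All 4 treated T libraries lay above the treated S libraries, while the rise differed between S and T by 0.01 on the log2 scale (SE 0.29, edgeR adjusted p = 1). The rise in S exceeded that in R by 2.03 (SE 0.34, edgeR adjusted p = 0.00498). This call held in 28 of 29 alternatives and was lost with replicate numbers as blocks (1.86, edgeR adjusted p = 0.0614). This gene too was named for its change in S, which favours such a difference.

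Gene g16319, with 1 transcript of 357 coding bases, stood at 15.8, 14, 14.8 and 13.5 CPM in treated S libraries 1 to 4, against 51.7, 44.6 and 125 CPM in untreated libraries 1 to 3. The treated values were nearly level, while untreated library 3 was more than 2 times as high as the other untreated libraries. The means were 14.5 ± 0.984 CPM in treated S (SD, n = 4) and 73.6 ± 44.3 CPM in untreated S (n = 3), a 5.07-fold fall (log2 fold change -2.34, SE 0.36, edgeR adjusted p = 0.000562). Without untreated library 3 the log2 fold change was -1.73, which was still called. Per length the gene held 76.7 ± 9.11 TPM in treated and 382 ± 190 TPM in untreated S. It also fell in T, to 10.9 ± 3.6 CPM treated, against 34.8 ± 15.3 CPM untreated (log2 fold change -1.67, edgeR adjusted p = 0.00419). In R it averaged 21.1 ± 8.54 CPM treated and 32.8 ± 4.62 CPM untreated and was not called (-0.64, edgeR adjusted p = 0.253). Its difference between S and R was -1.71 (SE 0.49, edgeR adjusted p = 0.0584) and stayed uncalled in 27 of 29 alternatives. It passed only without untreated T library 4 (-1.71, edgeR adjusted p = 0.0486) and with DESeq2 (-1.76, adjusted p = 0.0157). Without untreated S library 3 it was -1.09 (edgeR adjusted p = 0.132). Against T the difference was -0.67 (SE 0.48, edgeR adjusted p = 0.623), and -0.06 without untreated S library 3.

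Gene g10695, with 1 transcript of 1203 coding bases, stood at 30, 26.9, 29.7 and 23.9 CPM in treated S libraries 1 to 4, against 48.6, 54.6 and 59 CPM in untreated libraries 1 to 3. The groups were apart and each was narrow. The means were 27.6 ± 2.81 CPM in treated S (SD, n = 4) and 54.1 ± 5.25 CPM in untreated S (n = 3), a 1.96-fold fall (log2 fold change -0.97, SE 0.16, edgeR adjusted p = 0.000849). In T it averaged 36.4 ± 1.69 CPM treated and 45.6 ± 0.748 CPM untreated, and in R 64 ± 15.7 CPM treated and 65.5 ± 13.3 CPM untreated. Neither change was called (log2 fold change -0.33 in T, edgeR adjusted p = 0.147, and -0.03 in R, edgeR adjusted p = 0.932). The fall in S exceeded that in R by the test of the difference (-0.94, SE 0.22, edgeR adjusted p = 0.0281). The gene was named for its change in S, which favours such a difference. The S minus R call held in 23 of 29 alternatives. It was lost without untreated S library 2 (-0.93), untreated R library 2 (-0.84), untreated R library 4 (-0.89), treated R library 2 (-0.84) or treated R library 3 (-0.82). With replicate numbers as blocks it was also lost (-0.82, edgeR adjusted p = 0.23). Against T the difference was -0.64 (SE 0.21, edgeR adjusted p = 0.227).

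**Figure D4:**
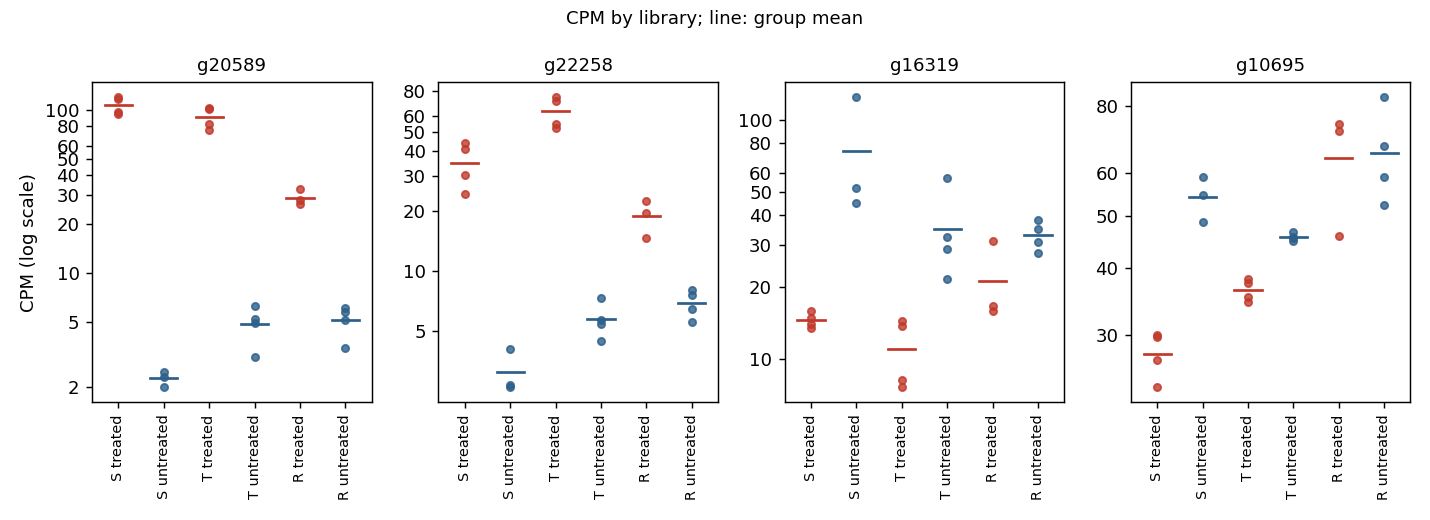
CPM of the 4 named genes in every library of S, T and R, on a log scale, with treated left of untreated in each population. Points are libraries and lines are group means. Gene g20589 averages 107 CPM in treated and 2.26 CPM in untreated S, and g16319 averages 14.5 CPM in treated and 73.6 CPM in untreated S.

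Genes that rose in S tended to carry consecutive identifiers. Of the 583, 81 (13.9%) had a neighbouring running number that also rose in S, against 3.44% of all tested genes. They formed 35 runs of consecutive numbers, 8 of them with 3 or more genes and the longest with 6. The 46 adjacent pairs in these runs often had similar coding lengths, with 20 pairs (43.5%) within 10% of each other, against 10.5% of all 15611 adjacent pairs tested. For 33 of the 46 pairs (71.7%), 1 or both genes had split reads in at least 1 S library, against 50.6% of all adjacent pairs. Whether the reads were split between the neighbours or with other transcript models was not measured. The values of neighbours may therefore not be separate measurements. The sources used here do not say whether running numbers follow positions in the genome. Without treated library 4, 56 of the 378 risen genes (14.8%) were such neighbours, against 2.29% of all tested genes. Among the genes that fell, 2 of 104 (1.92%) were neighbours, against 0.61% of all tested genes.

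The genes called in S were close to the tested genes in length. The median coding length was 1383 bases for those that rose, 1272 for those that fell and 1311 for all tested. Of the 583 risen genes 28 (4.8%) had more than 1 transcript model, as did 8 of the 104 fallen ones (7.69%) and 7.08% of all tested genes. The leading transcript was the same in all 7 S libraries for 23 of the 33 called genes that had more than 1 transcript and a mean of at least 10 counts in S, against 960 of 1448 such genes in all (66.3%). A leading transcript that changed between all treated and all untreated S libraries was found for 3 of the 1448 genes and for none of the 33. Such shares are often estimates, since 1280 of the 1448 genes had split counts in S. Whether the 3 genes were among these was not examined.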

How the data were processed

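The deposited tables, 1 per library, list 47916 transcript models with estimated counts (reads assigned, which need not be whole), TPM over effective length, and lengths in bases, per the file headers. The submitters' processing notes name Trimmomatic and Salmon, and give no versions. For the transcript set, the genome build and strandedness, the sources used here give nothing, so a gene cannot be told from an overlapping or antisense partner. In the S libraries, 35.2% to 37.8% of reads fell on transcript models with fractional estimates (farther than 5e-04 from a whole number). A fractional estimate means that some reads were divided among similar transcript models, of the same gene or of other genes.

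Estimated counts were rounded, summed to 45437 gene models and filtered with filterByExpr, leaving 22627 that held 99.95% to 99.97% of the S reads. They were scaled by TMM and tested with edgeR 4.0.16 (R 4.3.3, robust quasi-likelihood F test), with 1 mean for each of 6 groups over 22 libraries and a common biological coefficient of variation of 0.304. P-values were adjusted by Benjamini-Hochberg over all tested genes. The SE is the absolute log2 fold change over the square root of F. Log2 CPM uses a prior count of 2. CPM uses TMM-scaled sizes. Permutation tests used SciPy 1.17.1. The scripts were tested on simulated data.

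The named genes are the 2 that rose and 2 that fell with the smallest p among called genes with a mean log2 CPM of at least 1 in S, non-overlapping groups and whole counts in all 7 S libraries. Of the called genes, 296 that rose and 59 that fell were eligible. The lists and comparisons were chosen with earlier results of these data known. Same-numbered S libraries deviated from their group means with correlations of -0.0725, -0.109 and -0.211, so numbers were not taken to pair libraries. Floors cover counting error only. Gene lists by name and leaf cell type markers were not used here, since identifiers carry no names.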

Additional observations from a re-analysis of the deposited data

Results flagged for a closer look

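Per-library values were examined for outliers in 35 groups of 4, where chance would flag about 1 group in 20 for values fixed beforehand. That rate does not hold for values that the same libraries shaped, such as the principal components and the called genes. Some of these groups held only T or R libraries. Treated library 4 of S was set apart from the other treated S libraries in 3 of the groups. On the first principal component of the S libraries it lay at 114, against 13.6 to 27 in treated libraries 1 to 3. For the genes that fell in T alone, the mean log2 CPM was 3.81 in treated library 4, against 4.18 to 4.24 in treated libraries 1 to 3. The genes that fell in S took 0.176% of the reads of treated library 4, against 0.252% to 0.259% in treated libraries 1 to 3. Library 4 had a part in choosing these genes, which favours a low value there.

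The change after 2,4-D differed between S and R for 3 of the 4 named genes by the test of the difference, out of 8 differences tested between S and T or R. For g20589 the difference was 3.06 on the log2 scale, for g22258 it was 2.03 and for g10695 it was -0.94 (edgeR adjusted p = 7.75e-05, 0.00498 and 0.0281). The call of g20589 held in all 29 alternatives, that of g22258 in 28 and that of g10695 in 23. The adjusted p reached 0.0614 for g22258 and 0.23 for g10695. The genes had been named for their response in S.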

How the results depend on the processing

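The count of called genes in S, 687 with all settings as reported, was 219 in a model of the S libraries alone (205 higher, 14 lower), 1260 with DESeq2 (968 higher, 292 lower) and 328 when tested against a change of 1.5-fold (309 higher, 19 lower). It was 450 among gene models with whole counts (376 higher), where fewer genes were tested. With the replicate block it was 196 (188 higher, 8 lower), although the numbers were not shown to pair the libraries. Without 1 S library each, it ran from 376 to 852, with 304 to 689 higher and 52 to 163 lower. The cause was not tested. RLE and upper-quartile factors, both other filters, non-robust estimation, unsummed transcripts and the model of S and T libraries kept each count within 1.5 times, and the rise was the larger direction in every setting run.

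The log2 fold changes in S of the 4 named genes kept their direction and call in all 17 alternatives each. The S minus T difference of g22258, near 0 and never called, changed sign with no filter (-0.00814), with the CPM filter (-0.00141), with the replicate block (-0.119) and without 7 of the 22 libraries in turn (-0.129 to -0.0498). Over all 22 libraries left out in turn it ran from -0.129 to 0.25. The replicate block ended the S minus R calls of g22258 (1.86, adjusted p = 0.0614) and g10695 (-0.82, adjusted p = 0.23), and DESeq2 called the S minus T difference of g20589 (1.35, adjusted p = 0.00498). Depth limits genes near 0 counts, where 3 counts over untreated S correspond to 0.0484 CPM.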
